A study of Mus musculus with 4 samples.

Results

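Cytosolic ribosomal protein genes encode the protein parts of the large (60S, Rpl and Rplp symbols) and small (40S, Rps symbols and Rpsa) subunits of the ribosome that translates mRNA in the cytoplasm. Members were all genes with at least 1 probe set of their own whose symbol is Rpl or Rps plus a number, with an optional letter a, x or l, or Rplp0, Rplp1, Rplp2 or Rpsa. One further symbol of this form, Rps4l, is annotated as a pseudogene and was left out. The rule gave 58 of 19938 measured genes, 37 of the large and 21 of the small subunit, read by 213 of 28853 probe sets.

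The cells were dermal papilla cells, a mesenchymal cluster that sits in the hair bulb and signals to the follicle, sorted from mouse skin at postnatal day 5 as positive for a Sox2 green fluorescent protein reporter (Sox2GFP) and for integrin alpha 9. The cKO group, with a conditional knockout of Sox2, had 2 arrays, and the Het group, heterozygous for Sox2, had 2. All 4 samples shared the reporter, the gate and the age, and the sources used here give neither the Cre driver nor the strain, nor whether animals were pooled. The labels call the replicates biological, but do not say whether separate animals, litters or sorts stand behind them, so p-values measure only the spread between these samples.

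Ribosomal proteins are made in nearly equal amounts in growing cells and assemble on ribosomal RNA in the nucleolus. Their mRNAs are short and abundant, and most begin with a terminal oligopyrimidine (TOP) tract, a C followed by a run of C and T bases, through which the mTOR pathway controls their translation. In mouse skin, mutations of several of these genes cause dark skin, pale belly spots or dark feet.

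Every value is a log2 value relative to the median of the 4 arrays for that gene, so it is a difference between arrays and not a level. The 2 middle arrays of a gene with 1 probe set lie equally far on either side of 0 for that reason. Levels cannot be compared between genes, and detection, including that of the papilla markers, cannot be read. Fewer cells of a type and less RNA per cell cannot be told apart in such bulk samples. The list and both contrasts below were put forward with results of these arrays known, so the values are a description and no test of the list was made. With 2 arrays against 2, an exact permutation test of a single value cannot give a two-sided p below 0.333.

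Start sites from both ends of the range of differences are shown first, because the TOP tract is the feature by which these genes are known as a group. RefSeq (build GRCm38.p6) gave a promoter for 47 of the 58 members. The sequences run 5′ to 3′ on the gene's strand, from 45 bases before to 15 bases from the annotated transcript start on, and capitals mark the longest unbroken run of C and T that touches the 15 bases on either side of the start. Shown are, for each subunit, the 3 members with the most negative difference, cKO minus Het, among those matched (Rpl41, Rpl13 and Rpl19, then Rps10, Rpsa and Rps18), and the 2 with the highest (Rpl39l and Rpl34, then Rps28 and Rps6). Rpl8, which had the most negative difference of all, is not among the 47.
Rpl41: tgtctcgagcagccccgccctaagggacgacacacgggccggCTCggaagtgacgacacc
Rpl13: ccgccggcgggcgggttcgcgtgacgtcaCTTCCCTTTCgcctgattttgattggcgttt
Rpl19: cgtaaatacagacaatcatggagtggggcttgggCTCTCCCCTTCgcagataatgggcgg
Rpl39l: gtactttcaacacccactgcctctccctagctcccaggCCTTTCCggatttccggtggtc
Rpl34: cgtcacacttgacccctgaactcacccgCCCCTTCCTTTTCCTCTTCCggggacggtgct
Rps10: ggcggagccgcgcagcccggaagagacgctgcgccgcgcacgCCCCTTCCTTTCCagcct
Rpsa: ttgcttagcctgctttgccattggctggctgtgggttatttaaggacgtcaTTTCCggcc
Rps18: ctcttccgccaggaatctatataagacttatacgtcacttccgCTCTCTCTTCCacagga
Rps28: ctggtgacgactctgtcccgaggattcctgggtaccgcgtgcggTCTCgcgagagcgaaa
Rps6: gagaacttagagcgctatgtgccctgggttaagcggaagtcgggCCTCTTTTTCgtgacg

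The large subunit windows lie, with the strand in brackets, at chr10:128549154-128549213 (minus) for Rpl41, chr8:123102305-123102364 (plus) for Rpl13, chr11:98026879-98026938 (plus) for Rpl19, chr16:10170183-10170242 (plus) for Rpl39l and chr3:130730323-130730382 (minus) for Rpl34. Those of the small subunit lie at chr17:27635230-27635289 (minus) for Rps10, chr9:120127721-120127780 (plus) for Rpsa, chr17:33955651-33955710 (minus) for Rps18, chr17:33824548-33824607 (minus) for Rps28 and chr4:86857353-86857412 (minus) for Rps6. Rpl19 and Rpl34 each have 2 listed starts, and the one with the longer run is shown. Among the 6 members with the most negative differences shown the run was 3 bases long in Rpl41, 10 bases long in Rpl13, 11 bases long in Rpl19, 13 bases long in Rps10, 5 bases long in Rpsa and 11 bases long in Rps18. In the others it was 7 bases in Rpl39l, 20 bases in Rpl34, 4 bases in Rps28 and 10 bases in Rps6. Both long and short runs stood at each end of the range.

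Across the members with a promoter, 20 of 47 (42.6%) had a run of at least 8 pyrimidines touching the 15 bases on either side of the start. Of 27025 genes with a listed promoter 20.0% had one. Such a run need not begin at the start, and in Rpl13 and Rpl19 it lay wholly before it, so this is no count of TOP tracts. The letters CCGGAAG, the core of the sites of ETS factors, stood on either strand, from 250 bases before to 50 after the start, in 38.3% of members and 9.93% of all genes. CCATNTTG, read by the factor YY1, stood in 17.0% and 5.85%, and TATAAA in 12.8% and 15.7%. Read on the other strand, CCGGAAG is CTTCCGG, whose first letters can be part of a pyrimidine run. All are letter matches, not binding sites. The median difference, cKO minus Het, was -0.19 in the 20 members with a long run and -0.22 in the 27 without.

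Ribosomal protein genes were lower in cKO than in Het arrays on average, by a small amount in nearly the whole list. The median member stood at -0.05 and -0.11 in cKO replicates 1 and 2, against 0.16 and 0.05 in Het replicates 1 and 2. The median difference, cKO minus Het, was -0.21, a 1.16-fold lower value, and that of all 19938 genes was 0.00. Of the 58 members 52 had a negative and 6 a positive difference, and 47.7% of all genes had a negative one. In 38 members both cKO arrays lay below both Het arrays (65.5%), which held for 15.6% of all genes, and in 2 members both lay above (17.8% of all genes).

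No member passed limma's test adjusted over all genes, with 0 of 58 called and a smallest adjusted p of 0.897, and the background was 0% of 19938 genes. At an unadjusted p under 0.05 (limma), 16 members were lower and 0 higher in cKO, and over all genes 3.41% were lower and 1.87% higher. The choice of the list rested on this contrast, so nothing is read from these counts. Sox2 itself stood at -0.87 and -0.94 in the cKO arrays against 0.96 and 0.87 in the Het arrays, with an adjusted p of 0.345 (limma).

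**Figure D1:**
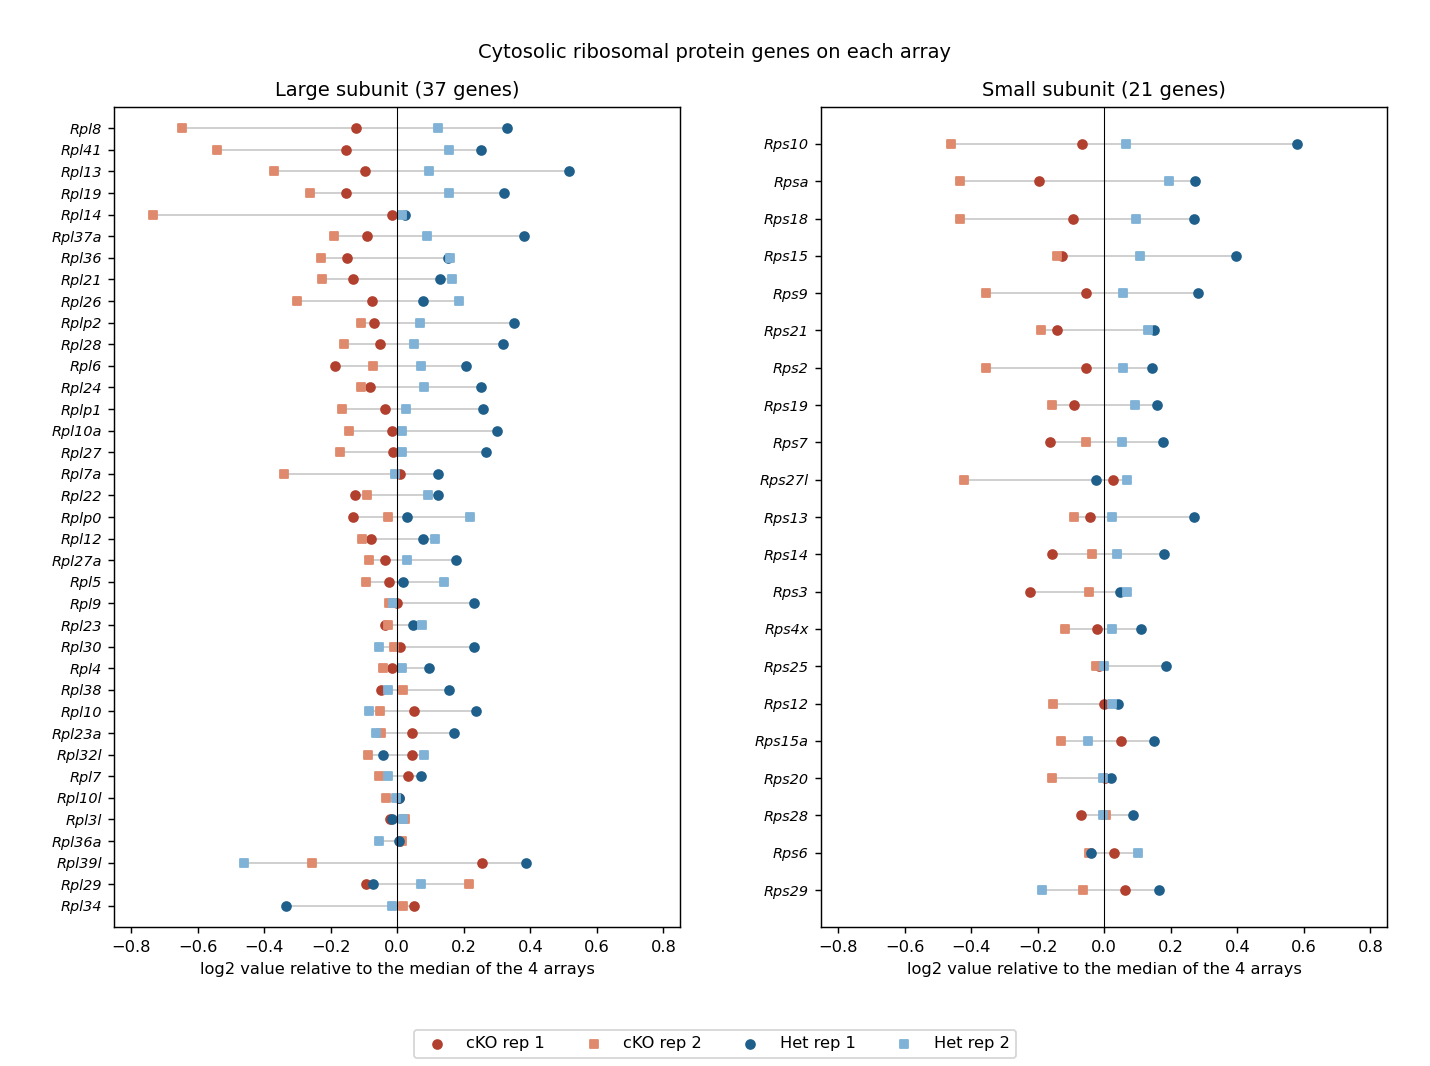
Each row is 1 ribosomal protein gene and each point 1 array, as the log2 value relative to the median of the 4 arrays, with cKO in red and Het in blue, circles for replicate 1 and squares for replicate 2; a grey line spans the 4 values. Genes run down from the most negative difference, cKO minus Het, and 38 of the 58 have both cKO points left of both Het points.

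Both subunits had medians close to that of the whole list. Large subunit genes had a median of -0.04 and -0.09 in the cKO arrays against 0.15 and 0.05 in the Het arrays, and 32 of 37 had a negative difference with a median of -0.20. Small subunit genes stood at -0.06 and -0.14 in cKO against 0.16 and 0.05 in Het, with 20 of 21 negative and a median of -0.21. Both cKO arrays lay below both Het arrays in 23 large and 15 small subunit genes. The difference between the subunits was not tested.

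Among large subunit genes, Rpl8, whose product lies next to the peptidyl transferase centre, had the most negative difference. It stood at -0.12 and -0.65 in the cKO arrays against 0.33 and 0.12 in the Het arrays, a difference of -0.61 ± 0.21 (SE of the fit over all genes, n = 2 arrays per group), or 1.53-fold lower. Rpl41, which encodes the smallest ribosomal protein, stood at -0.16 and -0.54 in cKO against 0.25 and 0.16 in Het (-0.55 ± 0.15). In both genes cKO replicate 2 was well below cKO replicate 1, and the groups did not overlap. Rpl13 stood at -0.10 and -0.37 against 0.52 and 0.10, the Het array of replicate 1 being the highest. Rpl19, which forms part of a bridge between the subunits, stood at -0.16 and -0.26 against 0.32 and 0.15 (-0.45 ± 0.08), with arrays of a group closer together than in Rpl13. Rpl36 and Rpl21 had the closest arrays among the larger differences: Rpl36 stood at -0.15 and -0.23 in cKO against 0.15 and 0.16 in Het (-0.35 ± 0.05).

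Rpl14 differed from this pattern, at -0.02 and -0.73 in the cKO arrays against 0.02 and 0.02 in the Het arrays. Its groups did not overlap, yet its difference of -0.39 ± 0.27 came from cKO replicate 2, and the replicate 1 arrays differed by only -0.04. Likewise Rpl7a stood at 0.01 and -0.34 in cKO against 0.12 and -0.01 in Het, with overlapping groups.

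In the small subunit, Rps10, which sits on the head of the 40S particle and is mutated in some people with Diamond-Blackfan anaemia, had the most negative difference. It stood at -0.07 and -0.46 in cKO against 0.58 and 0.07 in Het (-0.59 ± 0.25), with Het replicate 1 far above the rest. Rpsa, also known as the laminin receptor precursor, stood at -0.20 and -0.43 in cKO against 0.27 and 0.20 in Het (-0.55 ± 0.10, 1.46-fold lower). All 4 Rpsa values were further from 0 than those of the median member. Rps18 stood at -0.10 and -0.43 against 0.27 and 0.10, and Rps21 at -0.14 and -0.19 against 0.15 and 0.13 (-0.31 ± 0.04). Of these small subunit genes, Rps21 had the closest arrays within each group.

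Genes grouped by role mostly followed the list. In the whole list 52 of 58 members were negative and 65.5% separated lower, against 47.7% and 15.6% of all genes. The proteins that line the mRNA entry channel and the decoding site had 4 measured genes, Rps2, Rps3, Rps9 and Rps15, all with separated groups and a median difference of -0.34. Rps15 stood at -0.13 and -0.14 in cKO against 0.40 and 0.11 in Het, and Rps9 at -0.06 and -0.35 against 0.28 and 0.06. The stalk, which recruits elongation factors to the large subunit, also had 4 of 4 genes lower with separated groups (Rplp0, Rplp1, Rplp2 and its base protein gene Rpl12, differences between -0.30 and -0.19). Rplp0 was highest in Het replicate 2, with 0.22 there and 0.03 on the other Het array, unlike Rplp1 and Rplp2, which were highest in Het replicate 1. At the exit of the peptide tunnel, 3 genes were measured, Rpl19, Rpl23a and Rpl26, all with negative differences, and Rpl19 and Rpl26 with separated groups. Rpl5, whose product with the 5S RNA can bind and inhibit the p53 regulator MDM2, stood at -0.02 and -0.09 in cKO against 0.02 and 0.14 in Het (-0.14 ± 0.06).

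Of 6 members known for skin or pigment changes in mouse mutants, all had negative differences and 4 had separated groups, with a median of -0.19. This was close to the whole list, where 52 of 58 members were negative and 65.5% separated lower. Over all genes 47.7% were negative and 15.6% separated lower. Rps19 and Rps20 are the genes of dark skin mutants. Rps19 stood at -0.09 and -0.16 in cKO against 0.16 and 0.09 in Het (-0.25 ± 0.05). Rps20 stood at 0.00 and -0.16 against 0.02 and -0.00, so only cKO replicate 2 departed from the rest. Rpl24, the gene of the belly spot and tail mutant, differed by -0.26 ± 0.07, Rps7 by -0.22 ± 0.07 and Rpl27a, the gene of a dark-footed mutant, by -0.16 ± 0.07. Rpl38, the gene of the tail-short mutant, differed by -0.08 ± 0.08 with overlapping groups.

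A minority of members were near 0 or higher in cKO. Rpl34 stood at 0.05 and 0.02 in cKO against -0.34 and -0.02 in Het (0.21 ± 0.13), with groups that did not overlap and Het replicate 1 as the single low array. Rpl36a was the other member with both cKO arrays above, at 0.01 and 0.01 against 0.01 and -0.05, a margin of under 0.01 to Het replicate 1. Rpl29 stood at -0.09 and 0.21 against -0.07 and 0.07. Rps6, whose product is the phosphorylated S6 protein used as a readout of mTOR signalling, stood at 0.03 and -0.05 in cKO against -0.04 and 0.10 in Het, with a difference of -0.04 ± 0.07. In Rpl29 and Rps6 the groups overlapped.

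Paralogs of ribosomal protein genes, several of them expressed in few tissues or under stress, had differences between -0.22 and 0.04. Of 6 measured, 3 were lower and 0 had separated groups, with a median of -0.01. Over all genes 47.7% had a negative difference and 15.6% were separated lower. The 6 include Rpl7l1 and Rps4l, which are not members of the list above, and Rps4l is annotated as a pseudogene. The list of parent genes had 4 measured, Rpl10, Rpl22, Rpl7 and Rps4x, all lower, with a median of -0.11. Groups were separated in Rpl22 and Rps4x, but the paralog of Rpl22, Rpl22l1, was not measured. Rpl3l, the paralog of heart and skeletal muscle, lay within 0.03 of 0 on all 4 arrays, and the testis paralog Rpl10l within 0.04. Rpl39l, another testis paralog, stood at 0.26 and -0.26 in cKO against 0.39 and -0.46 in Het. Its arrays were split by replicate number and not by genotype, with the widest replicate difference of the list. Rps27l, a target of p53, stood at 0.03 and -0.42 in cKO against -0.03 and 0.07 in Het, so cKO replicate 2 alone was low.

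The median member also differed between replicate numbers, by less than between genotypes. The median member was higher in replicate 1 than in replicate 2 by 0.08 in cKO and by 0.11 in Het. Replicate 1 was above replicate 2 in 46 of 58 members within cKO and in 44 within Het. Over all 19938 genes it was above in 9335 within cKO and in 9799 within Het. Averaged over both genotypes, replicate 1 minus replicate 2 had a median of 0.10, against 0.00 for all genes. Both replicate 1 arrays lay above both replicate 2 arrays in 11 of the 58 members, and the share over all genes was 17.8%. They lay below in 2 of the 58 members, and the share over all genes was 21.4%. Rpl39l had the widest difference at 0.68, followed by Rps10 at 0.45 and Rpl8 at 0.36, and Rpl29 had the most negative at -0.22. For Rpl22, Rpl12, Rpl32l, Rpl6, Rps7 and Rps28 it was within 0.01 of 0.

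In each replicate number the median member was lower in cKO. Set against the Het array of the same number, the cKO array was lower in 52 of 58 members in replicate 1, with a median of -0.21, and in 47 members in replicate 2, with a median of -0.17. Over all 19938 genes it was lower in 9885 in replicate 1 and in 9496 in replicate 2. These comparisons share no array, but the list was put forward with all 4 arrays known, so neither is independent support for the other. The 2 differences had a Pearson correlation of 0.46 over the 58 members and of 0.26 over all 19938 genes, where the points of each axis share a pair of arrays and are not independent. The numbers are only names here, since no label ties a number to a litter or day.

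**Figure D2:**
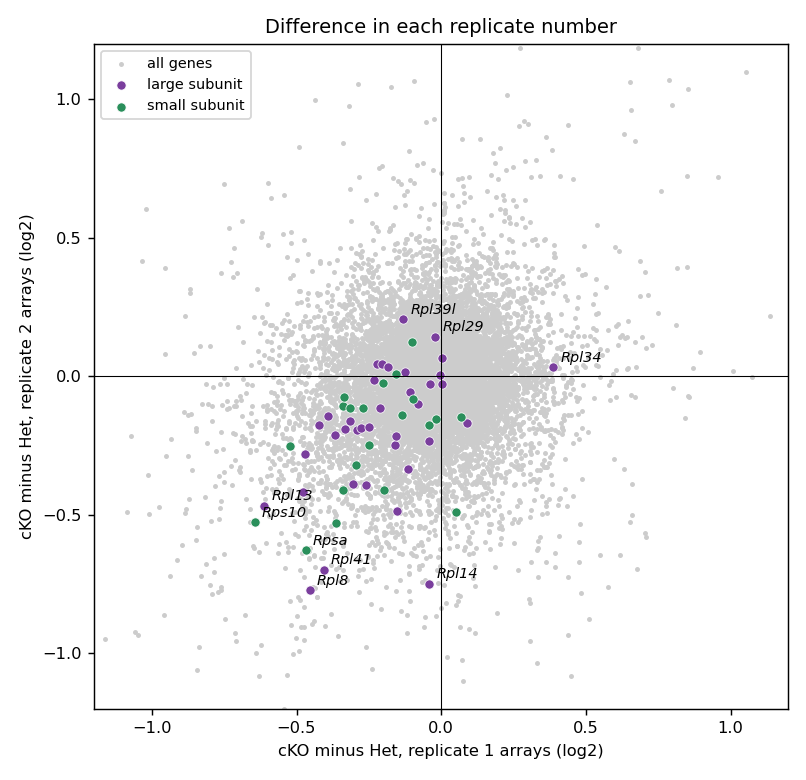
Each point is 1 gene, with the log2 difference, cKO minus Het, of the replicate 1 arrays on the horizontal axis and of the replicate 2 arrays on the vertical axis; ribosomal protein genes are coloured by subunit over all genes in grey, of which 45 lie outside the axes. Most ribosomal protein genes sit in the lower left of the plot, Rpl14 is low only on the vertical axis, and Rpl34 lies to the right.

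Het replicate 1 and cKO replicate 2 were the arrays at the ends. Het replicate 1 was the highest of the 4 in 42 of 58 members and cKO replicate 2 the lowest in 40, and both held in 31 members, against 11.7% of all genes. Over all 19938 genes Het replicate 1 was the highest in 5038 and cKO replicate 2 the lowest in 5120. The same 2 arrays also had the widest spread over all probe sets, with an SD of 0.16 for cKO replicate 2 and 0.14 for Het replicate 1, against 0.11 for each of the other 2 arrays. The median difference of the members was -0.15 without cKO replicate 2 and -0.15 without Het replicate 1. It was -0.20 without cKO replicate 1 and -0.25 without Het replicate 2. With 1 array left out, groups separate more often by construction. Without Het replicate 1, 41 members were separated lower in cKO (30.4% of all genes) and 7 higher (31.6%). Without Het replicate 2, 50 were lower (31.6%) and 2 higher (35.8%). Without cKO replicate 1 the counts were 47 lower (32.5%) and 4 higher (38.6%), and without cKO replicate 2 they were 42 lower (33.4%) and 3 higher (32.5%).

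In 20 members there was 1 probe set, and the other 38 had up to 14 (Rps12). Over those 38 the median range of the difference among the probe sets of a gene was 0.10, and the SD of the difference between members was 0.18. The range was widest for Rpsa, whose 5 probe sets ran from -0.68 to -0.36. In 11 of the 38 the probe sets lay within 0.1 of each other on every array. Only Rpl7 and Rps29 had probe sets of both signs, all within 0.13 of 0. Probe sequences were not examined, so probe sets of 1 gene are not counted as separate measurements, and signal from a gene and from near-identical copies cannot be told apart. Over the 20 members with 1 probe set the median difference was -0.14, with 10 of them lower with separated groups.

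**Figure D3:**
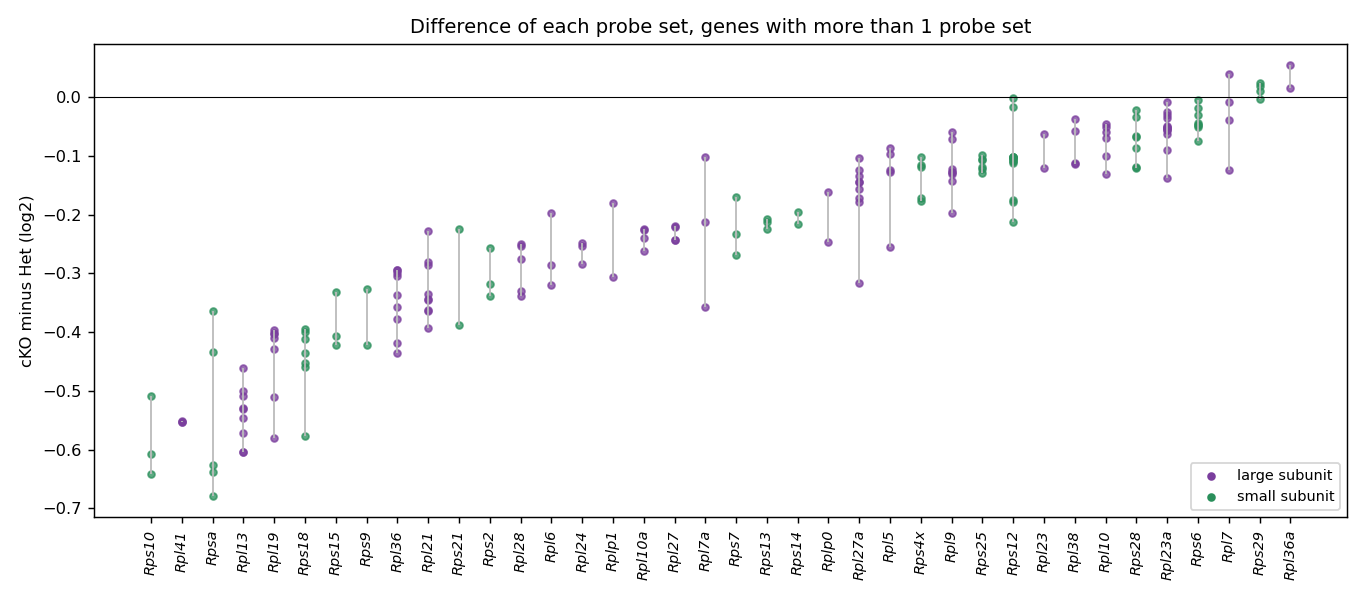
Each point is the log2 difference, cKO minus Het, of 1 probe set, for the 38 members with more than 1 probe set, ordered by the gene's mean and coloured by subunit; a grey line joins the probe sets of a gene. The median range within a gene was 0.10. Points nearly coincide in Rpl41 at -0.55 and spread widest in Rpsa. Only Rpl7 and Rps29 have points on both sides of 0.

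Ribosomal proteins whose symbols fall outside the rule were measured for 3 genes. Fau, which encodes a small subunit protein fused to a ubiquitin-like protein, stood at -0.18 and -0.13 in cKO against 0.40 and 0.13 in Het (-0.42 ± 0.11). Rps3a1 stood at 0.03 and -0.14 against 0.39 and -0.03, and the paralog Rpl7l1 differed by 0.01 ± 0.11. Of these, Fau alone had separated groups.

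Other genes of the translation machinery were divided. Of 16 measured elongation and initiation factor genes and other TOP mRNAs, 10 were lower and 6 higher in cKO, with a median of -0.08 and 7 lower with separated groups, and 0 passed over all genes (limma). Eif3h, of the initiation complex eIF3, stood at -0.18 and -0.50 in cKO against 0.18 and 0.19 in Het, and Eef1b2, an elongation factor gene, at -0.11 and -0.45 against 0.15 and 0.11. Nap1l1, a histone chaperone gene with a TOP mRNA, stood at 0.08 and 0.42 against -0.08 and -0.25, higher in both cKO arrays. The 25 ribosome biogenesis genes, which build the subunits in the nucleolus, had 17 lower with a median of -0.05, and 7 lower with separated groups. Ubtf, a factor of RNA polymerase I, had the most negative difference among them at -0.42 ± 0.19, and Taf1d the highest at 0.27 ± 0.11. Again 0 passed over all genes (limma). The share separated lower was 43.8% in the first list and 28.0% in the biogenesis list, against 15.6% of all genes. Over all genes 47.7% had a negative difference.

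Most genes of 3 other large housekeeping families also had negative differences. Respiratory chain genes had a median of 0.00 and -0.14 in the cKO arrays against 0.10 and 0.01 in the Het arrays, with 69 of 88 genes lower. Proteasome subunit genes stood at 0.02 and -0.24 in cKO against 0.16 and -0.01 in Het, with 32 of 39 lower. Mitochondrial ribosomal protein genes stood at -0.01 and -0.07 in cKO against 0.06 and -0.01 in Het, with 53 of 76 lower. In these 3 families cKO replicate 1 and Het replicate 2 lay within 0.03 of each other, and the medians of the cytosolic ribosomal genes there were -0.05 and 0.05. Both cKO arrays lay below both Het arrays in 39.8% of respiratory chain, 41.0% of proteasome and 26.3% of mitochondrial ribosomal genes. Over all genes 15.6% were separated lower and 47.7% had a negative difference. Ndufb8, of complex I, had the most negative difference of the respiratory chain list, at -0.17 and -0.73 in cKO against 0.31 and 0.17 in Het. Psmb5, a catalytic subunit of the proteasome, stood at -0.02 and -0.87 against 0.42 and 0.02. Mrps10, of the small mitochondrial subunit, went the other way, at 0.19 and 0.53 against -0.22 and -0.19. Replicate 1 was higher than replicate 2 by a median of 0.17 in the respiratory chain, 0.25 in the proteasome and 0.10 in the mitochondrial ribosome. The differences between families were not tested.

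**Figure D4:**
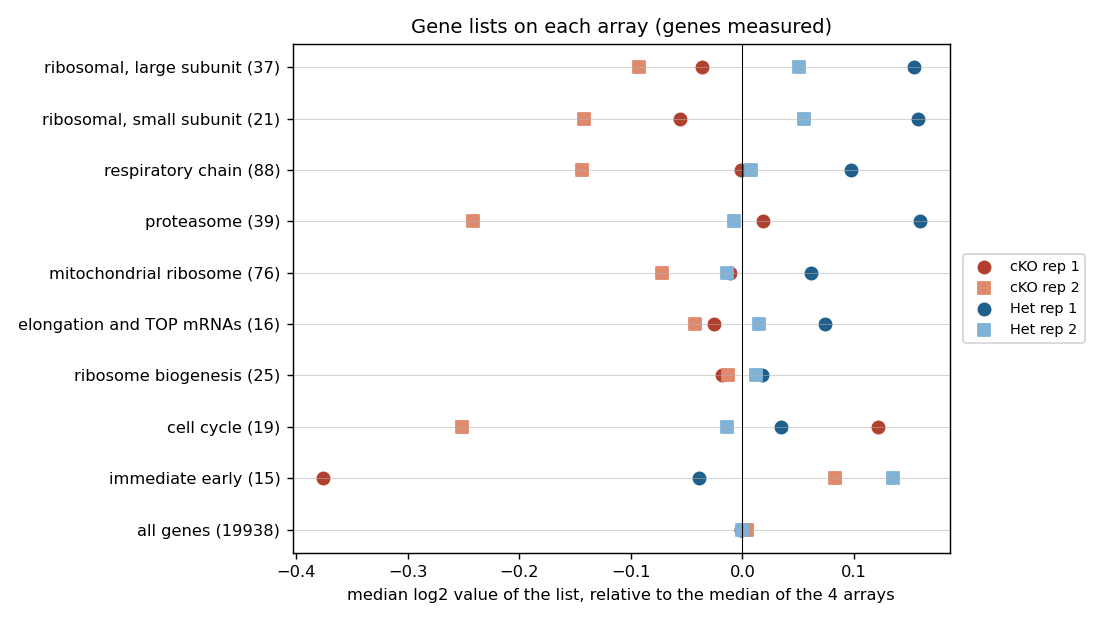
Each row is a gene list with its number of measured genes, and each point the median log2 value of the list on 1 array, relative to the median of the 4 arrays; cKO is in red and Het in blue. The lists are the ribosomal subunits, the respiratory chain, the proteasome, the mitochondrial ribosome, elongation and TOP mRNAs, ribosome biogenesis, the cell cycle, immediate early genes and all genes. Both cytosolic ribosomal rows have both cKO points left of both Het points. So do the rows of the respiratory chain, elongation and TOP mRNAs, and ribosome biogenesis. The medians of all genes lie within 0.01 of 0 on every array.

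Several other marker lists also had lower medians in cKO. For the counts that follow, 47.7% of all genes had a negative difference, 15.6% were separated lower and 17.8% higher. Dermal fibroblast markers had a median of -0.02 and -0.09 in the cKO arrays against 0.09 and 0.19 in the Het arrays, with 7 of 8 lower in cKO, the same order of genotypes as the ribosomal genes. Keratinocyte markers were lower in cKO in 13 of 14 genes, but their median was high in Het replicate 2 alone, at 0.28, and lay between -0.05 and -0.01 on the other 3 arrays. Melanocyte markers stood at -0.04 and 0.05 in cKO against -0.09 and 0.15 in Het, and immune, endothelial and smooth muscle and dermal sheath medians lay within 0.08 of 0 on all arrays. Schwann and glial markers stood at -0.02 and -0.11 in cKO against 0.09 and 0.01 in Het, and dermal papilla markers at 0.00 and -0.05 against 0.09 and -0.04. These medians stand over single markers that differed by more than any ribosomal gene. Egr2, a factor of myelinating Schwann cells, stood at -0.48 and -1.05 in cKO against 0.48 and 0.69 in Het, and Fabp7, a glial fatty acid binding protein gene, differed by -0.82 ± 0.08. These were the 2 most negative of 7 Schwann and glial markers, of which 5 were lower in cKO, 3 of them with separated groups. The other 2, Foxd3 (0.09 ± 0.07) and Mbp (0.04 ± 0.04), were higher with overlapping groups. Of 14 papilla markers, Sox2 included, 4 were separated lower (15.6% of all genes) and 4 higher (17.8%) in cKO. Vcan, a matrix proteoglycan gene, differed by -0.77 ± 0.26, Wif1, a Wnt inhibitor gene, by 0.75 ± 0.22, and Ndnf by 1.08 ± 0.50. None of these passed over all genes (limma). Of 19 cell cycle genes 16 were lower in cKO, and of 15 immediate early genes 12. Cell cycle genes stood at 0.12 and -0.25 in cKO against 0.03 and -0.01 in Het, and immediate early genes, which respond to handling, at -0.38 and 0.08 against -0.04 and 0.14. The part of these cells and states in the ribosomal differences was not tested.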

How the data were processed

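Gene expression in sorted dermal papilla cells was read on 4 arrays after amplification and biotin labelling of total RNA, per the labels' protocols. The authors deposited log2 values from RMA, according to the submitters' processing notes. The sources used here give no log base, software version, build or centring step, and log2 was assumed because RMA gives it. Every probe set had a median over its 4 arrays of 0, within 5e-07, so dim probe sets could not be filtered.

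Of 28853 probe sets, 21789 named 1 gene, 1621 several and 5443 none; symbols were matched to a RefSeq gene table (GRCm38.p6), and 0 changed. Each of 19938 genes was given the mean of its own probe sets. Differences and standard errors came from limma 3.58.1 (R 4.3.3, lmFit and eBayes, group as the only term, 2 residual and 1.52 prior degrees of freedom, two-sided, Benjamini-Hochberg over all genes, threshold 0.05). Groups were called separated where both arrays of a group lay beyond both of the other. Figures used matplotlib 3.10.9.

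The members and lists were chosen with earlier results of these data known. Genes eligible to be named were Sox2, the 5 largest and 5 smallest genotype differences and the 3 largest and smallest replicate differences per subunit, members of the role lists, genes with probe sets of both signs, and the 2 largest differences each way of other lists, of which the text names some. Rpl36, Rpl21, Rps21, Rpl7a, Rpl6, Rpl23a, Rpl32l, Rps2 and Rps12 are named besides, with their values known. Alternatives were median centring, quantile normalization, the median over probe sets, a replicate block, other member sets, another prior or unit, and each array left out.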

Additional observations from a re-analysis of the deposited data

How the results depend on the processing

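No gene passed at an adjusted p of 0.05 in limma under any of the 11 alternatives tried, the replicate block and the unmoderated statistic included (0 genes each); at an unadjusted p under 0.05 the fit gave 680 genes lower and 373 higher in cKO. Same-numbered arrays deviated together with a correlation of 0.30 over all genes, but no label pairs them, so the replicate block stands here only as an alternative; it left the median difference at -0.21. With each array left out in turn, the median genotype difference ran from -0.25 to -0.15 for all members, from -0.24 to -0.13 for the large and from -0.28 to -0.16 for the small subunit. Over members with 1 probe set it was -0.14, and -0.0881 for the large subunit. Separated lower members numbered 41 to 50 with 3 arrays, where 30.4% to 33.4% of all genes separate, and 10 among the 20 members with 1 probe set. Separated higher members numbered 2 to 7 with 3 arrays, 1 with arrays centred on their medians and 1 among members with 1 probe set. The median replicate difference was 0.0505 under quantile normalization for all members, 0.0371 for the large and 0.0531 for the small subunit. Over members with 1 probe set it was 0.0617 for all and 0.0535 for the large subunit. For the small subunit with Fau, Rps3a1 and the pseudogene Rps4l added it was 0.13. Without an array the median replicate difference ran from 0.00338 (without Het replicate 1) to 0.20 for all members. It ran from 0.00461 to 0.21 for the large and from -0.00288 (without cKO replicate 2) to 0.19 for the small subunit. Leaving out 1 array mixes genotype into this contrast. Of 38 named members, 11 changed sign under at least 1 of their 8 alternatives. The number of arrays limits every value, and signal over background cannot be read from centred values.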

Other observations

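A further 233 probe sets list a ribosomal protein symbol among several genes and entered no comparison above. They hold 34 symbols of the same rule, 16 of which no member has, and no gene is named from them. Their median value was -0.07 and -0.14 in cKO replicates 1 and 2, against 0.19 and 0.05 in Het replicates 1 and 2, and their median difference was -0.24. Of these probe sets 212 (91.0%) had a negative difference, and in 163 (70.0%) both cKO arrays lay below both Het arrays. Over all 28853 probe sets the median difference was 0.01, 46.3% had a negative difference and in 15.4% both cKO arrays lay below both Het arrays. Probe sequences were not examined, so whether these probe sets measure anything apart from the members' own is not known.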
